A study of Mus musculus with 8 samples.

Results

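The replication-dependent histone genes encode the linker histone H1 and the core histones H2A, H2B, H3 and H4 that package newly replicated DNA. They were identified by name, as every gene with a unique symbol of the Hist1 to Hist4 clusters and a usable estimate, in expression tables of mouse retinal organoids. The rule gave 62 genes of 35494 loci in 1 deposited table and of 35541 loci in each of the other two. By family there were 5 H1, 17 H2A, 15 H2B, 12 H3 and 13 H4 genes. GENCODE M21 lists 67 protein-coding genes of this name, and the other 5 (Hist3h2a, Hist1h1e, Hist1h2be, Hist2h2bb and Hist1h2bc) fell outside the rule because their loci carried several names or occurred more than once. On GRCm38, 51 of the 62 lie on chromosome 13, 9 on chromosome 3, 1 on chromosome 11 and 1 on chromosome 6, and 59 have a single exon in their annotated transcripts.

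Polyadenylated RNA was sequenced from day 6 organoids of the mouse Rx:GFP line, which carries a GFP reporter at Rx (Rax), a transcription factor gene of the eye field. In all samples, controls included, FKBP12F36V-HA was fused to the C terminus of METTL3 at both endogenous Mettl3 alleles. FKBP12F36V is a degron, which the small molecule dTAG-13 brings to a ubiquitin ligase so that the fused protein is degraded, and METTL3 writes N6-methyladenosine on RNA. The 4 groups of 2 replicates had 0, 1, 8 or 24 h of dTAG-13 at 125 nM, with the 0 h group untreated and no solvent control named in the labels. The treatment protocol speaks of days 5 and 6 and includes a 2 h treatment, not analysed here, so the day on which dTAG-13 was added is known only as far as the labels give it. The labels give 1 knock-in line and no parental line without the tag, and do not say whether the 2 replicates came from separate cultures.

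Histone mRNAs of this class are made in bulk during S phase, when the cell must coat new DNA, and fall away when replication ends. Most end not in a poly(A) tail but in a short stem-loop, which is held by the stem-loop binding protein SLBP. A machinery with the U7 small nuclear ribonucleoprotein cuts the pre-mRNA just after the stem-loop. Selection of polyadenylated RNA is meant to keep the fraction of each histone mRNA that carries a tail, so the levels below do not describe the whole histone mRNA pool. Whether histone mRNA without a tail was also captured cannot be told from these data.

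The stem-loop was read from the annotated transcripts as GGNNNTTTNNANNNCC on the sense strand with arms of 6 pairing bases around a loop of 4. It was found after the stop codon of 40 of the 62 genes, starting 21 to 58 bases after the stop (median 31), while 14 genes have fewer than 16 annotated bases after their stop codon and could not hold it. Among genes with at least 100 annotated bases after the stop, 25 of 31 histone genes of this name (80.6%) had the motif in those bases, against 0.0157% of 19070 other protein-coding genes. The sites below are shown because these genes carry the results that follow, with the stem-loop in capitals and 12 bases before and 2 after it (GRCm38, sequence from GENCODE M21 transcripts).
Hist1h2ap (chr13:21833027-21833056, minus strand): aaaaaaaaaaaaGGCTCTTTTCAGAGCCat
Hist1h2ao (chr13:21810886-21810915, plus strand): aaaaaaaaaaaaGGCTCTTTTCAGAGCCat
Hist1h2ag (chr13:22042481-22042510, minus strand): atcgccaacaaaGGCTCTTTTCAGAGCCac
Hist1h2ad (chr13:23574883-23574912, plus strand): tataaaaacaaaGGCTCTTTTCAGAGCCat
Hist1h1c (chr13:23739500-23739529, plus strand): aacaatccaaaaGGCTCTTTTCAGAGCCac
Hist3h2ba (chr11:58949337-58949366, plus strand): ccccaacccaaaGGCTCTTTTCAGAGCCac
Hist1h4i (chr13:22040964-22040993, minus strand): atgctacttaaaGGCCCTTTTTAGGGCCac
The first 6 share 1 stem-loop, which 22 genes of the families H1, H2A, H2B and H3 hold, and the H4 gene Hist1h4i has another, shared with Hist2h4. In all, 6 stem-loop sequences occurred, and the one held by 7 genes (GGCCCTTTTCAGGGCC) was found in H4 genes alone. A run of 12 A bases stands directly before the stem-loop of Hist1h2ap and Hist1h2ao, a stretch that 3 of the 67 annotated histone genes (4.48%) and 7.67% of other protein-coding genes have somewhere in the transcript. The canonical polyadenylation signal AATAAA lay in the last 40 bases of 20.9% of the annotated histone genes, against 55.6% of other protein-coding genes and 35.4% of other single-exon ones. This search set no minimum of bases after the stop codon. For the 14 genes with fewer than 16 such bases it read mostly coding sequence, so the histone share may be too low. GGACT, a common sequence around N6-methyladenosine, was in the last 400 bases of 27.3% of the 55 histone genes long enough for the search and of 30.8% of other protein-coding genes.

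Each deposited table sets 1 treated time against 0 h and holds 1 value per gene and condition, pooled over both replicates, so the spread between replicates is not visible and no p-value is given. Levels are in FPKM, fragments scaled by transcript length and sequencing depth, beside the estimated number of fragments (estimated counts, scaled by the authors). The error of an FPKM value is its deposited interval, given in parentheses, and the error of an estimated count is the deposited standard deviation (SD). Conditions summed to between 31361518 and 32562075 estimated counts, and the median coefficient of variation of a count at 0 h was 10.9% to 11.8%. All 3 comparisons rest on the same 0 h libraries, and their directions are not independent of each other. Eye field genes were well expressed in these samples, with Lhx2 at 142 FPKM and Rax at 49.7 FPKM at 0 h of the 8 h table, and some pluripotency genes were also present (Dppa5a at 200 FPKM). Mettl3 RNA itself gave log2 ratios of -0.01, 0.00 and -0.19 over the 3 times, the intervals overlapping, which says nothing of the protein.

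Histone transcripts were a small part of these libraries. All 62 genes together held 0.0080% of the estimated counts at 0 h, and the sum was 2569 ± 131 counts in the 1 h table (SD combined from the deposited variances as if independent). At least 10 estimated counts in 1 of the conditions were reached by 18, 21 and 20 genes at 1, 8 and 24 h, by 17 of them in all 3 tables and by 23 in any. A gene near this minimum can pass it through its higher condition alone, which favours large ratios among such genes. At most 3 counts in both conditions, the level treated here as the floor, were found for 22, 21 and 27 genes, for which no ratio is given. The testis genes Hist1h2aa and Hist1h2ba were listed at 0 in every condition.

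H2A genes made up most of the signal. In the 8 h table, Hist1h2ap stood highest at 0 h with 134 FPKM (106 to 161) and 876 estimated counts. Hist1h2ag followed with 82.5 FPKM (64.4 to 101) and 549 counts, below Hist1h2ap with no overlap of the intervals. A step lower, Hist1h2ad had 24.8 FPKM, Hist1h2ao 17.8 and Hist1h2ah 16.4, 3 neighbours in the order whose intervals overlap. These 5 H2A genes held 71.1% of all histone counts at 0 h. They encode near-identical proteins, and over their first 384 coding bases any 2 of them are 99.2% to 100% identical.

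The other families were low. The H2B gene Hist3h2ba, the only 1 of the 62 on chromosome 11, reached 10.6 FPKM (7.38 to 13.8), an interval that overlaps that of Hist1h2ah. Next came the H4 genes Hist1h4i at 3.52 FPKM (1.98 to 5.07) and Hist1h4k at 3.51 (0 to 8.82), the linker histone gene Hist1h1c at 3.02 (2.13 to 3.91), the H2A gene Hist1h2ak at 1.91 and the H2B gene Hist2h2be at 1.495 (1.04 to 1.95). Every H3 gene was under 1 FPKM at 0 h, with Hist1h3g highest at 0.892 FPKM (0 to 2.07). From Hist1h4i downward, among genes with at least 10 counts, each gene's interval overlapped that of its neighbour in the order, so these genes are not ranked beyond their error.

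Counts of the 5 highest H2A genes are not fully separable. Of the 150-base windows of the Hist1h2ap transcript, 303 of 333 occur in another annotated transcript, as do 303 of 331 of Hist1h2ao, 217 of 256 of Hist1h2ah, 220 of 336 of Hist1h2ag and 251 of 423 of Hist1h2ad. A read of 150 bases from such a window fits several genes, and the division among them is the authors' estimate. In total 49 of the 62 genes share such a window, while Hist1h1c, Hist1h1d, Hist3h2ba, Hist2h2be and Hist1h2ak, among those with at least 10 counts, share none. No gene with at least 10 counts lies in a locus that overlaps another deposited locus. Some of these loci are still wider than the annotated transcript, as for Hist1h4i with 1455 bases against 727, so their counts may cover more than the gene.

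**Figure D1:**
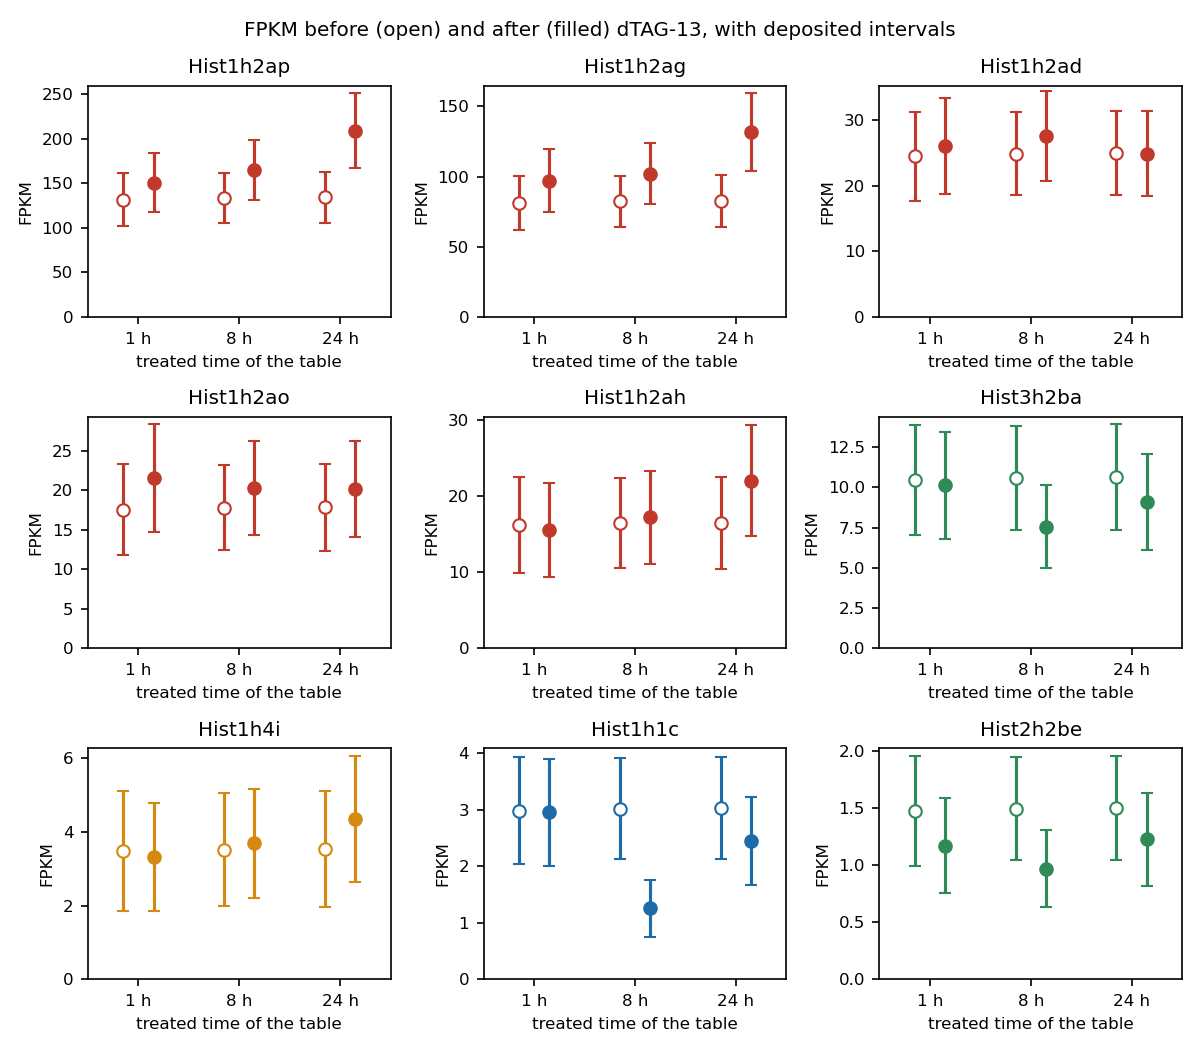
FPKM of 9 histone genes at 0 h (open) and after dTAG-13 (filled) in the table of each treated time, with bars for the deposited interval and the vertical axis from 0 in each panel. Hist1h2ap and Hist1h2ag at 24 h and Hist1h1c at 8 h are the points whose interval clears that of 0 h by the rule used here.

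At 1 h no histone gene changed by the rule. A change was called on 3 criteria: a ratio of 1.5-fold or more after adding 0.1 FPKM to each value, 1 FPKM or more in 1 of the conditions, and deposited intervals with no overlap. Among all 13690 loci tested at 1 h, 0.117% were called higher and 0.285% lower, and of the 16 histone genes tested none was called in either direction. The count-based rule (at least 10 counts, 1.5-fold, counts ± 2 SD not overlapping) called none of 18, against 0.135% higher and 0.23% lower of all loci. Over the 18 genes with at least 10 counts the median log2 FPKM ratio was -0.03, with 8 above 0 and 10 below, and over all loci with that minimum it was -0.00.

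The 3 highest and 3 lowest log2 ratios at 1 h among genes with at least 10 counts follow, and genes with fewer counts reached wider ones. Hist1h2ak went from 1.88 (0 to 3.93) to 3.26 FPKM (0.581 to 5.94) on 7.37 and 14.1 counts, a log2 ratio of 0.76. The H2B gene Hist1h2bg had a log2 ratio of 0.49 and the H2A gene Hist1h2ao one of 0.30. At the low end, Hist1h3g had a log2 FPKM ratio of -1.05 but a log2 count ratio of -0.32, Hist1h4k -0.75 and -0.31, and the H2B gene Hist1h2bh -0.60 and -0.78. All of these intervals overlapped.

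At 8 h the linker histone gene Hist1h1c fell. It had 3.02 FPKM (2.13 to 3.91) at 0 h and 1.25 (0.751 to 1.75) at 8 h, a 2.31-fold lower value with a log2 ratio of -1.21. Its estimated count went from 131 ± 19.3 to 54.2 ± 10.8 (SD), and both rules called it. The level at 8 h lay below the whole interval at 0 h. In the other tables its intervals overlapped and it was not called, with 2.98 (2.03 to 3.93) and 2.95 FPKM (2.01 to 3.90) at 0 and 1 h, and 3.03 (2.13 to 3.93) and 2.44 (1.66 to 3.22) at 0 and 24 h, log2 ratios of -0.01 and -0.30. The treated times stand in separate tables, so the difference between 8 and 24 h was not tested. Hist1h1c encodes a somatic linker histone, and its transcript of 1560 bases carries the stem-loop 24 bases after the stop codon as well as AATAAA near its end.

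No other histone gene was called at 8 h, with 1 of 19 lower and none higher by FPKM, where 0.94% of 13825 loci were called lower and 3.49% higher. The count rule gave the same gene among 21, where 1.38% of all loci were lower and 4.01% higher. The median log2 FPKM ratio over the 21 genes with at least 10 counts was 0.15, with 14 above 0 and 7 below, and that over all loci was -0.00. Of those above 0, Hist1h3c, Hist1h3d, Hist2h3c1, Hist1h2ak and Hist1h2bg reached 10 counts only at 8 h. All genes below 0 reached that minimum in both conditions. The median was 0.18 for 336 other single-exon protein-coding genes with the same minimum and 0.01 for multi-exon ones. Of the other single-exon genes tested then, 16.7% passed as higher and 2.92% as lower. Among those of up to 1000 bases, 5.26% of 38 tested were called higher and none lower, and the median over 45 such genes was 0.13. The histone median lay near that of other single-exon genes, and the 2 groups were not tested against each other.

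By family, nearly all ratios at 8 h lay within error. All 7 H2A genes with at least 10 counts had ratios above 0 (median log2 0.18), led in level by Hist1h2ap at 134 (106 to 161) and 165 FPKM (131 to 198) and by Hist1h2ag at 82.5 and 102 FPKM. Of these 7, Hist1h2ak reached 10 counts only at 8 h, and the others share windows with other H2A genes, so their directions are not independent. The 5 H2B genes had a median of -0.30. Hist2h2be went from 1.495 (1.04 to 1.95) to 0.967 FPKM (0.631 to 1.30), a log2 ratio of -0.58, and Hist3h2ba from 10.6 (7.38 to 13.8) to 7.55 FPKM (4.97 to 10.1), a log2 ratio of -0.49. Both H2B genes had overlapping intervals and were not called.

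Among genes with at least 10 counts, H3 genes had the highest ratios at 8 h, on few counts, and some genes with fewer counts in other families had higher ones. Hist1h3c went from 0.291 (0 to 0.718) to 0.943 FPKM (0.163 to 1.72), a log2 ratio of 1.42 on 3.36 and 10.8 estimated counts. Hist1h3d had a log2 ratio of 0.80 on 8.79 and 17.8 counts, and Hist2h3c1 of 0.78 on 5.86 and 13.8 counts. Hist1h3c, Hist1h3d and Hist2h3c1 reached 10 counts only at 8 h, so the minimum let them in through their higher condition. Hist2h3c1 shares every 150-base window with another transcript. Hist1h3g, the H3 gene with most counts, had 45.6 and 77.2 counts, a log2 FPKM ratio of 0.27 and a log2 count ratio of 0.75. Its deposited locus spans 3121 bases, where the annotated transcript has 530, so its counts may cover more than this gene. The intervals of these H3 genes overlapped in each case, so no change of an H3 gene was detectable at this depth.

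At 24 h the 2 most abundant histone genes, both H2A, rose. Hist1h2ap had 134 FPKM (106 to 162) at 0 h and 209 (167 to 252) at 24 h, a 1.56-fold higher value with a log2 ratio of 0.64. Its estimated count went from 867 ± 91.5 to 1331 ± 135 (SD). Hist1h2ag had 82.8 FPKM (64.4 to 101) at 0 h and 132 (104 to 160) at 24 h, 1.59-fold higher with a log2 ratio of 0.67, on 543 and 851 counts. For both genes the lower bound at 24 h stood just above the upper bound at 0 h. Their log2 ratios at 1 and 8 h were 0.19 and 0.30 (Hist1h2ap) and 0.25 and 0.31 (Hist1h2ag), not called, from the same 0 h libraries. Hist1h2ap spans bases 21833026 to 21833507 and Hist1h2ag bases 22042460 to 22042944 of chromosome 13, both on the minus strand. They are therefore not neighbours, but they share coding windows and the 2 calls are not independent estimates.

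By FPKM 2 of 15 histone genes were called higher at 24 h and none lower, where 3.83% of 13910 loci were higher and 1.65% lower. The count rule called the same 2 of 20, where 4.56% of all loci were higher and 2.45% lower. Among other single-exon protein-coding genes 17.6% passed as higher and 3.67% as lower. The median log2 FPKM ratio of the 20 histone genes with at least 10 counts was 0.31 (13 above 0, 7 below), that of 338 other single-exon genes 0.23, and that of all loci 0.00. Hist1h2ae, Hist1h4n, Hist1h2ak and Hist1h2bg, all above 0, reached 10 counts only at 24 h, and Hist1h2bh, below 0, only at 0 h. For the 45 single-exon genes of up to 1000 bases the median was 0.17, and 5.13% of those tested were called higher.

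In the authors' division of reads among genes that share windows, the other well-measured H2A genes did not all follow. Hist1h2ad had 24.9 FPKM (18.5 to 31.3) at 0 h and 24.9 (18.5 to 31.3) at 24 h, a log2 ratio of -0.00. Hist1h2ah had 16.5 (10.4 to 22.6) and 22.0 FPKM (14.7 to 29.4), a log2 ratio of 0.42, and Hist1h2ao 17.9 (12.4 to 23.4) and 20.2 (14.1 to 26.2), a log2 ratio of 0.17. Among genes with at least 10 counts, Hist1h2ae had the highest log2 ratio, 1.18, on 4.54 and 11.9 counts, before the H4 gene Hist1h4n at 0.88 on 6.62 and 12.4 counts and Hist1h2ak at 0.74 on 7.41 and 12.4 counts. All of these intervals overlapped. Hist1h2ae, Hist1h4n and Hist1h2ak reached 10 counts only at 24 h, so the minimum let them in through their higher condition.

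Lowest at 24 h among genes with at least 10 counts stood Hist1h2bh with a log2 ratio of -0.53 on 14.6 and 8.65 counts, Hist1h1c with -0.30 and Hist2h2be with -0.27, none called. Hist3h2ba had 10.6 (7.36 to 13.9) and 9.07 FPKM (6.09 to 12.1), a log2 ratio of -0.23. Hist1h4k is a gene for which the measure matters, with a log2 ratio of 0.32 by FPKM and -0.31 by counts. Its deposited locus spans 3715 bases, where the annotated transcript has 312. Among genes with at least 10 counts the 2 measures differed in sign for 2, 1 and 1 genes at 1, 8 and 24 h.

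**Figure D2:**
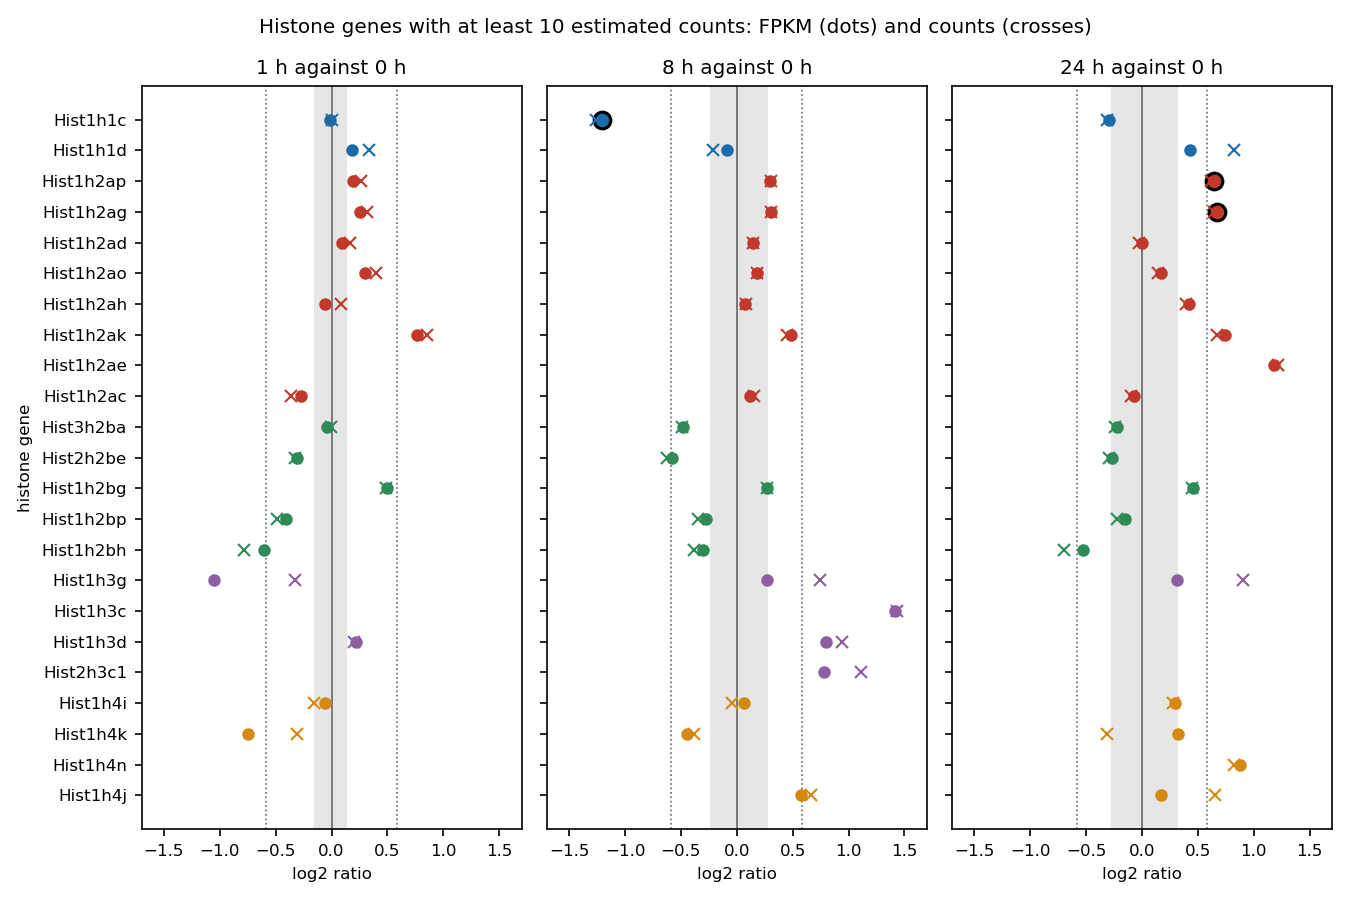
Log2 ratio to 0 h of each histone gene with at least 10 estimated counts, at 1, 8 and 24 h, by FPKM (dots) and by counts (crosses), coloured by family. The grey band spans the middle quartiles of all loci, dotted lines mark 1.5-fold, and the black-ringed dots are the called genes, Hist1h1c at 8 h and Hist1h2ap and Hist1h2ag at 24 h.

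Sums over a family show where the transcripts of each kind of histone moved, and here error bars are ± SD from the deposited variances. H2A went from 1871 ± 116 to 2688 ± 167 estimated counts at 24 h, 1.44-fold, with values ± 2 SD that did not overlap. At 1 and 8 h the H2A sums were 1862 ± 123 and 2248 ± 146, and 1890 ± 116 and 2284 ± 138, each pair overlapping within 2 SD. Without Hist1h2ap and Hist1h2ag, the other 15 H2A genes had 460 and 506 counts at 24 h, overlapping within 2 SD (log2 ratio 0.14). The 2 genes left out were those called higher in these same data and hold most H2A counts, so a smaller ratio was to be foreseen. They share windows with other H2A genes, so how far the rise belongs to these 2 genes alone cannot be told. All 62 genes summed to 2571 ± 124 and 3388 ± 172 counts at 24 h (1.32-fold, no overlap within 2 SD), and the 45 genes that are not H2A to 699.7 ± 41.9 and 699.7 ± 41.0.

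The H1 sum went from 155 ± 20.4 to 79.9 ± 12.8 at 8 h, with no overlap within 2 SD, of which Hist1h1c had 131 and 54.2. At 1 h it was 153 ± 21.8 and 166 ± 22.8, and at 24 h 153 ± 20.6 and 144 ± 19.0. H2B sums were lower after treatment in each table (304 and 281 at 1 h, 294 and 223 at 8 h, 291 and 243 at 24 h), within 2 SD. H3 sums were 82.8 ± 12.8 and 142 ± 17.5 at 8 h and 81.9 ± 13.2 and 131 ± 17.5 at 24 h, also with overlap. H4 sums were 176 and 178 counts at 8 h and 174 and 182 at 24 h. H2A thus held 72.8% of histone counts at 0 h and 79.3% at 24 h.

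**Figure D3:**
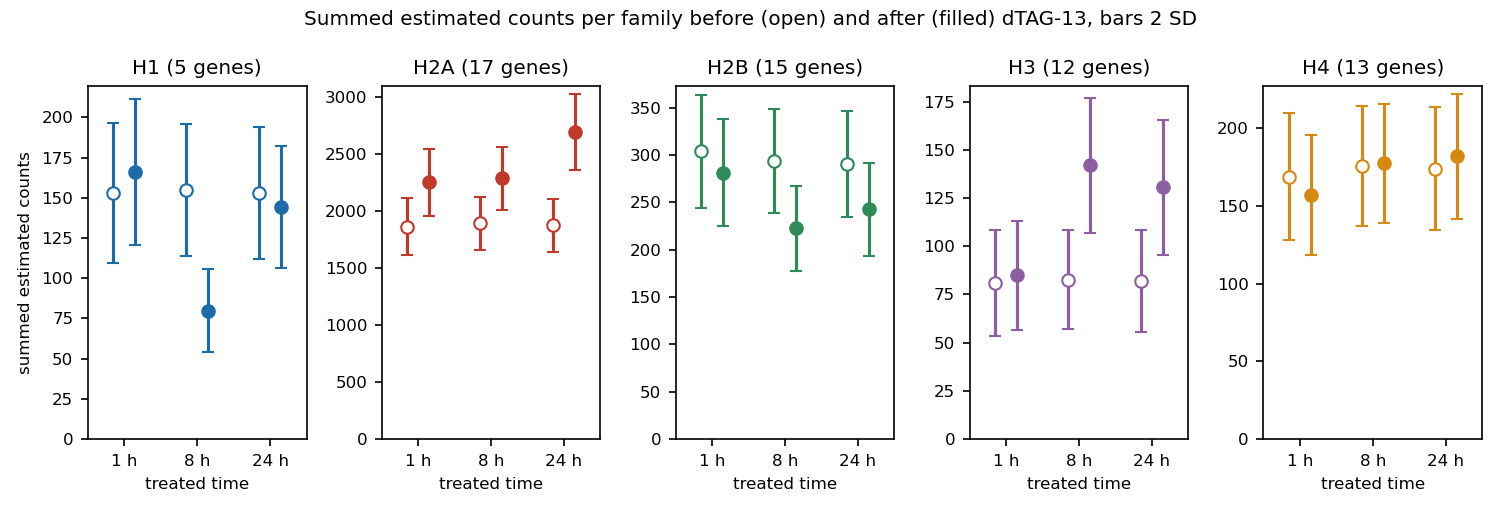
Summed estimated counts of all genes of each family at 0 h (open) and after dTAG-13 (filled) in the table of each treated time, with bars of 2 SD and each vertical axis from 0. The bars part for H1 at 8 h (155 and 79.9) and for H2A at 24 h (1871 and 2688).

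The ratios were also read by how far a transcript can be told from others, a split made after the values were known. The 5 genes that share no window had median log2 ratios of -0.01, -0.49 and -0.23 at 1, 8 and 24 h. Genes that share windows had -0.06 (13 genes), 0.23 (16) and 0.32 (15). Genes with AATAAA near the end had -0.18 (4 genes), -0.38 (6) and -0.19 (6), and those without it 0.14, 0.18 and 0.37. The class without it includes Hist1h2ah, Hist1h2ak and Hist1h4k, whose annotation ends at or just after the stop codon and could not show the signal. At 8 h Hist1h3c, Hist1h3d, Hist2h3c1 and Hist1h2bg, which share windows, reached the minimum count only after treatment. So did Hist1h2ae, Hist1h4n and Hist1h2bg at 24 h, while Hist1h2bh reached it only before treatment. Hist1h2ak, which shares no window, reached it only after treatment at each time. Of these genes only Hist2h3c1 and Hist1h2ae have AATAAA near the end. The minimum favours higher ratios among genes that pass it only after treatment. These splits overlap, as Hist1h1c, Hist3h2ba and Hist2h2be belong to the first class in both, and family, length and level vary with them. Whether any of these features has a part in the direction was not tested.

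**Figure D4:**
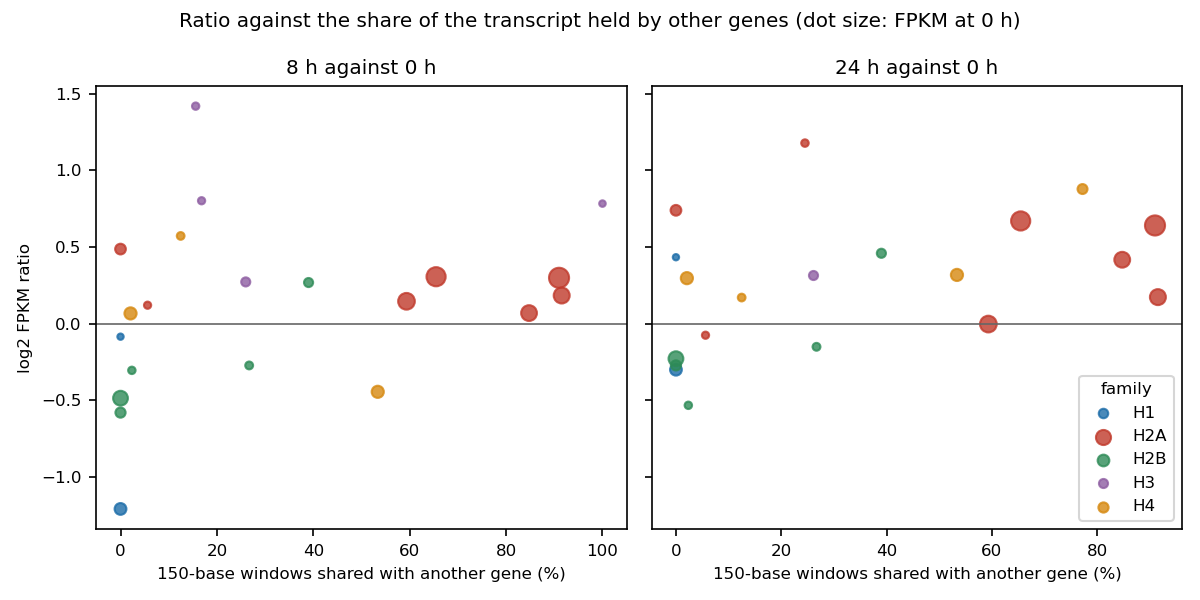
Log2 FPKM ratio at 8 and 24 h of histone genes with at least 10 counts (vertical) against the percent of 150-base windows of the transcript that occur in another gene (horizontal), with dot area growing with FPKM at 0 h and colour giving the family. Below 0 at 8 h are 4 of the 5 genes at 0 percent, with Hist1h1c lowest at -1.21.

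The promoters of the 3 called genes are shown for the elements known from histone genes, from 250 to 35 bases before the RefSeq start (GRCm38.p6). Capitals mark CCAAT on either strand, the element bound by nuclear factor Y, and in Hist1h1c also AAACACA, known as the H1 box.
Hist1h2ap (chr13:21833510-21833725, minus strand): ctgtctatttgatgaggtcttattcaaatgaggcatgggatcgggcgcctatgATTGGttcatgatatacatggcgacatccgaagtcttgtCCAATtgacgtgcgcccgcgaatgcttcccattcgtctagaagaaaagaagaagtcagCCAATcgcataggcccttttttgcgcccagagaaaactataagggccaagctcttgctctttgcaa
Hist1h2ag (chr13:22042984-22043199, minus strand): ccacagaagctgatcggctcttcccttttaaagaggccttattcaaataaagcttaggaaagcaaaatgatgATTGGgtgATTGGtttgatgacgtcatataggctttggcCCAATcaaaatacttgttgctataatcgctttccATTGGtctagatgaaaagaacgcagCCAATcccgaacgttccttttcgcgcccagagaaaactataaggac
Hist1h1c (chr13:23738557-23738772, plus strand): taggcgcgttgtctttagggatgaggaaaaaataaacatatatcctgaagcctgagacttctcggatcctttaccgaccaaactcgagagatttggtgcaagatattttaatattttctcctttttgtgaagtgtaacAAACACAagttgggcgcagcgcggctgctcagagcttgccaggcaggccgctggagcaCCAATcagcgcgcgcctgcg
Hist1h2ap holds 3 CCAAT elements in this stretch, Hist1h2ag 5, and Hist1h1c 1 beside 1 H1 box. For Hist1h2ap the RefSeq start lies 32 bases inside the GENCODE transcript, while for Hist1h2ag and Hist1h1c it lies 5 and 1 bases from the GENCODE start. The 3 stretches and their element counts are therefore not aligned to the same point of the transcript. RefSeq promoters of 300 bases (250 before to 50 after the start) matched 58 of the 62 genes, and motifs were counted on both strands. CCAAT was in 84.5% of them, in every H1, H2A, H2B and H3 promoter and in 3 of 12 of H4, against 37.9% of 27025 promoters of all genes. TATAAA was in 58.6% against 14.2% of all. AAACACA was in 4 of 5 H1 promoters against 7.14% of all, and the octamer ATTTGCAT in 6 H2A and 5 H2B promoters and in 1.75% of all. CCAAT does not set Hist1h2ap and Hist1h2ag apart from the other H2A genes, all of which have it, nor AAACACA Hist1h1c from most H1 genes.

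The genes that serve histone production were read from lists, which were chosen with earlier results of these data known. Of 19 factors of histone gene transcription, 3' end processing and decay, 17 were named singly at 8 and 24 h, and their median log2 ratios were 0.04 (19 genes), 0.19 and 0.11 at 1, 8 and 24 h. Lsm10, a subunit of the U7 ribonucleoprotein that cuts histone pre-mRNA, rose at both later times. It was the 1 call among 17 (5.88%) at each of them, beside 3.49% (8 h) and 3.83% (24 h) of all loci, so the count itself is near the background. In the 8 h table it stood at 15.7 FPKM (11.9 to 19.5) before and 41.9 (33.1 to 50.7) after treatment, log2 1.41. At 24 h it stood at 50.02 FPKM (39.6 to 60.5) against 15.8 (11.9 to 19.6), log2 1.66. Slbp, the stem-loop binding protein, had 75.3 FPKM (60.5 to 90.2) and 69.8 (56.0 to 83.6) at 0 and 8 h and log2 ratios of 0.21, -0.11 and -0.09 at the 3 times. For Npat, the coactivator of histone genes, the ratios were 0.11, 0.19 and 0.11. The lowest ratios of the list were Zfp473 at 1 h (-0.40), Snrpd3 at 8 h (-0.39) and Sympk at 24 h (-0.58), and none was called.

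Genes of S phase and replication, 42 of 46 on the list named singly, had median log2 ratios of 0.07, -0.27 and -0.21 at 1, 8 and 24 h, with 16.7% above 0 at 8 h and 21.4% at 24 h, where all loci had 49.7% and 50.4%. Called among them were Fen1, a flap nuclease, at 8 h (log2 0.91) and 24 h (0.92) and Tk1, thymidine kinase, at 24 h (1.12), all higher and in loci that overlap others. These calls were 2.38% of the 42 genes at 8 h and 4.76% at 24 h. Of all loci 3.49% and 3.83% were called higher then, so the number of calls is near the background. The lowest were Tyms at 8 h (-0.58) and E2f8 at 24 h (-0.48), not called, and at 1 h the range was -0.14 (Gins3) to 0.21 (Ccne1). The median ratio of the histone genes was above 0 at both later times while that of the S phase genes was below 0, a difference that was not tested. The histone medians include genes that reached 10 counts only after treatment, and this minimum favours ratios above 0 among them. With a minimum of 30 counts the histone medians were 0.069 at 8 h and 0.30 at 24 h. The median was below 0 as well for the 5 histone genes that share no window (-0.49 at 8 h and -0.23 at 24 h). In bulk RNA, fewer cells in S phase and less RNA per cell cannot be told apart.

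Replication-independent histone variants, whose mRNAs are polyadenylated throughout the cell cycle, ranged at 0 h in the 1 h table from 18.5 FPKM (H2afj) to 624 (H3f3a). Hist1h2ap, at 132 FPKM there, lay within that range. Their 11 median log2 ratios were 0.06, -0.09 and -0.05. H2afx, whose product marks DNA breaks and whose gene makes both a stem-loop and a polyadenylated mRNA, fell at 24 h, with 129 FPKM (104 to 153) before and 71.6 (57.6 to 85.7) after treatment (log2 -0.84). Its log2 ratio at 8 h was -0.49, without a call. At 24 h it was the only call among the 11 variants (9.09%), where 1.65% of all loci were called lower. The highest ratios were those of H2afz at 1 h (0.33) and H2afj at 8 and 24 h (0.53 and 0.51), and the lowest at 1 h was H1f0 (-0.14). Of 22 chaperones and assembly factors, 20 were named singly and none was called at any time, with medians of 0.07, -0.09 and -0.12. All loci were called at 3.49% higher and 0.94% lower at 8 h and at 3.83% and 1.65% at 24 h, so no call in 20 genes is near the background. At 8 h they ranged from Rbbp7 (-0.42) to Asf1b (0.48), at 24 h from Rbbp4 (-0.43) to Ubn1 (0.41), and at 1 h from Hjurp (-0.45) to Rbbp4 (0.30).

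The histone loci outside the rule gave no call at any time. Hist3h2a, merged with Trim17 in the tables, had 4.40 FPKM (2.38 to 6.41) at 0 h and 1.44 (0.283 to 2.59) at 24 h, a log2 ratio of -1.55 with intervals that still touch, on 97.2 and 42.9 counts, and reads of the 2 genes cannot be parted. The gene lies beside Hist3h2ba, whose ratio at 24 h was -0.23. Hist1h2bc, listed at 2 loci, stood at log2 0.46 and 0.35 then, and the merged locus of Hist1h1e and Hist1h2be had -0.13. Markers of cell types are given at 24 h beside the histone values, for genes with at least 10 counts, where 50.4% of all loci had ratios above 0. Of 8 eye field and progenitor genes 87.5% were above 0 (median log2 0.37), with Rax (0.66) and Lhx2 (0.69) called higher. Those calls were 25% of the 8 genes, where 3.83% of all loci were called higher. Of 7 pluripotency genes 28.6% were above 0 (median -0.18, highest 0.33 for Klf4), with Dppa5a (-0.88) and Tdgf1 (-1.05) called lower. Those calls were 28.6% of the 7 genes, where 1.65% of all loci were called lower. The other lists had no call: 5 neuronal genes had a median of -0.27, 5 mesoderm, endoderm and trophoblast genes 0.46, 2 pigment epithelium genes 0.61 and 3 fibroblast genes -0.63. The part of these differences in the histone values was not tested.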

How the data were processed

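The 8 samples were grouped by the time in their titles (0, 1, 8 and 24 h, 2 replicates each). The authors deposited 3 pairs of tables, each of 0 h against 1 treated time. Per the file headers, 1 table of a pair gives FPKM and its bounds, and its partner gives estimated counts (expected counts that need not be whole) and their variance, 1 column per condition. Both replicates are thus combined in the authors' values, and a fit across replicates, edgeR or DESeq2 included, could not be made. The submitters' processing notes name mm10, Cufflinks 2.2.1 and Cuffdiff. The level of the interval, the strandedness of counting and the treatment of reads that fit several genes are not given in the sources used here. For histone genes with a lower bound above 0 the interval reached a median of 2.00 deposited SD to each side.

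Log2 ratios were formed within a table with 0.1 added to FPKM or 1 to counts, which understates changes of low genes. For these genes FPKM at 0 h differed by a median factor of 1.0035 between the 24 h and 8 h tables and by 0.921 to 1.09 between the 1 h and 8 h tables. The 1 h table gives Hist1h2bg a wider locus and 2.49 times the count at 0 h. The rules were run on all loci, and on simulated tables with known changes. Gene models came from GENCODE M21 (all 62 genes matched) and promoters from RefSeq.

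The members and lists were chosen with earlier results of these data known. Genes named were those called, the 3 with the highest FPKM of each family, the 3 highest and lowest ratios at each time, and, in the lists, called genes, extremes, Slbp, Npat and Mettl3. Others were named after their values were seen, for level, sequence or locus. Alternatives tried were other pseudocounts, minimums, folds and centring, counts for FPKM, no interval criterion, and leaving out overlapping loci. Computations used Python 3.11.15, NumPy 2.4.6, pandas 2.3.3 and Matplotlib 3.10.9.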

Additional observations from a re-analysis of the deposited data

How the results depend on the processing

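No paired analysis was possible because the deposited columns pool both replicates, and for the same reason no replicate could be left out in turn. Without the interval criterion, the 1.5-fold rule alone gave 1 histone gene higher and 1 lower at 1 h (0 and 0 with it), 4 higher at 8 h (0 with it) and 4 higher at 24 h (2 with it). A minimum of 5 FPKM gave 0 genes lower at 8 h in place of 1, since Hist1h1c lies below that minimum, and a fold of at least 2 gave 0 genes higher at 24 h in place of 2. The median log2 ratio at 1 h, -0.03, was 0.044 by estimated counts and 0.10 with a minimum of 3 counts. Among the 5 genes that share no 150-base window, an alternative chosen after seeing the data, the median was -0.49 at 8 h and -0.23 at 24 h, against 0.15 and 0.31 over all genes with at least 10 counts. The H2A sum at 24 h had a log2 ratio of 0.14 without Hist1h2ap and Hist1h2ag, also chosen after seeing the data, against 0.52. The median at 8 h, 0.15, was 0.27 with a minimum of 3 counts and 0.069 with a minimum of 30, and that at 24 h, 0.31, was 0.17 with 1 FPKM added. With these 3 among them, 68 alternative values were counts of calls that did not change or medians that kept their direction. Many of them were counts of 0 calls that stayed at 0, so the tally is a weak measure of robustness. Leaving out overlapping loci could not change the medians, since no gene with at least 10 counts overlaps another locus. Depth limits most of the family: only 18 to 21 of the 62 genes reached 10 estimated counts in a table, and the error of each value is the authors' model, not a spread seen between replicates.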
